A study of Erythranthe guttata with 80 samples.

Results

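GA20ox1 (Migut.F00399), GA3ox1 (Migut.I00834) and GA2ox8 (Migut.H01552) encode enzymes that make and inactivate gibberellin in *Mimulus guttatus*, and their transcripts were followed here across leaf and bud stages of a coastal and an inland line. They are 3 of the 28140 genes in the count table. The study singled them out for an ecotype difference in a model whose reference level was the 2leaf stage. The ecotype difference at 2leaf, and every comparison with 2leaf plants, is therefore given as a description without a test, whereas differences among 4leaf, 6leaf, 8leaf and bud plants were tested. Plants of the coastal perennial accession SWB-4 (Coast) gave leaves at 4 stages, 2leaf, 4leaf, 6leaf and 8leaf, and then floral buds. Those of the inland annual accession LMC-17 (Inland) gave leaves at 2leaf and 4leaf, and then floral buds. Each of these 8 groups held 10 plants, and each plant gave 1 leaf pair or bud sample. All plants were untreated and shared the chamber conditions and the daily harvest window. They were staged by leaf number, and plant ages were not used here. By the labels each leaf stage is a different leaf pair of the plant, so leaf position and plant stage cannot be told apart. This also holds where Coast 8leaf plants are set against Inland 4leaf plants. Each ecotype is represented by a single self-fertilised accession, so the line and the ecotype cannot be told apart, and the plants are replicates of a line.

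Gibberellins are diterpenoid hormones that promote stem elongation, leaf growth and, in many annual plants, flowering. GA 20-oxidases catalyse successive oxidations late in the pathway and GA 3-oxidases carry out the final step to the bioactive hormone. GA 2-oxidases inactivate gibberellins or their precursors, and the 2-oxidases related to GA2ox8 act on the larger precursors in Arabidopsis. Bioactive gibberellin is bound by GID1 receptors, which leads to the breakdown of DELLA proteins, the repressors of the response. In Arabidopsis, bioactive gibberellin also lowers the transcripts of GA20ox and GA3ox genes and raises those of GA2ox genes, so transcript levels alone do not give the amount of hormone.

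RNA was read by 3′-Tag-Seq, which reads each transcript near its 3′ end, and levels are given as CPM, counts relative to the library total, after TMM scaling, edgeR's correction for differences in library composition. The 80 libraries held 1256776 to 6090402 counts. All 3 genes passed the filter on low counts, with 11702 counts of GA20ox1, 5807 of GA3ox1 and 2120 of GA2ox8 over the 80 libraries. GA20ox1 had counts in every library, GA3ox1 had none in 1 library and GA2ox8 had none in 3. The tissue labels held for marker genes that the study names for leaf and bud modules. The summed level of 6 photosynthesis and chloroplast genes ranged from 254 to 621 CPM in buds and from 2239 to 5715 CPM in leaves. The summed level of 4 cell wall genes ranged from 196 to 3234 CPM in buds and from 1.88 to 20.5 CPM in leaves, where the pectin methylesterase inhibitor gene was at 0 in at least 1 library of every leaf group. Buds and leaves are mixtures of cell types, so fewer cells of a type and less RNA per cell cannot be told apart. Libraries had been randomised over 4 pools, and GA20ox1 and GA3ox1 moved with the pool in leaves. Within the Coast leaf groups, differences between pools held 68.7% of the variance of log2 CPM of GA20ox1, 46.98% of that of GA3ox1 and 15.0% of that of GA2ox8. The main results of GA20ox1 are given with and without pool 1 below. For GA3ox1 and GA2ox8, only calls and signs that changed without pool 1 are given, in the closing section. An earlier analysis of these data found 4 further libraries apart or extreme in total (Inland 4leaf plant 4, Coast 2leaf plant 9 and Inland bud plants 6 and 7). Leaving them out changed no call of the 3 genes.

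GA20ox1 was highest in Coast leaves, lower in Inland leaves and lowest in the buds of each line. In Coast plants it ranged from 33.5 to 97.5 CPM at 2leaf (median 58.5), from 22.1 to 242 CPM at 4leaf (median 50.4), from 31.7 to 153 CPM at 6leaf (median 50.2) and from 20.3 to 141 CPM at 8leaf (median 45.3). Coast buds held 2.10 to 13.4 CPM (median 4.26). Inland plants held 6.47 to 28.3 CPM at 2leaf (median 10.8), 8.82 to 24.5 CPM at 4leaf (median 15.3) and 0.222 to 1.29 CPM in buds (median 0.852). In the order of the medians, the 4 Coast leaf groups lay within each other's ranges, as did the Inland leaf groups. The ranges of the last Coast leaf group, 8leaf, and of Inland 4leaf met, and their medians differed by less than the SD of Coast 8leaf plants. Coast buds came after the Inland leaves, and every Coast bud sample was above every Inland bud sample.

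**Figure D1:**
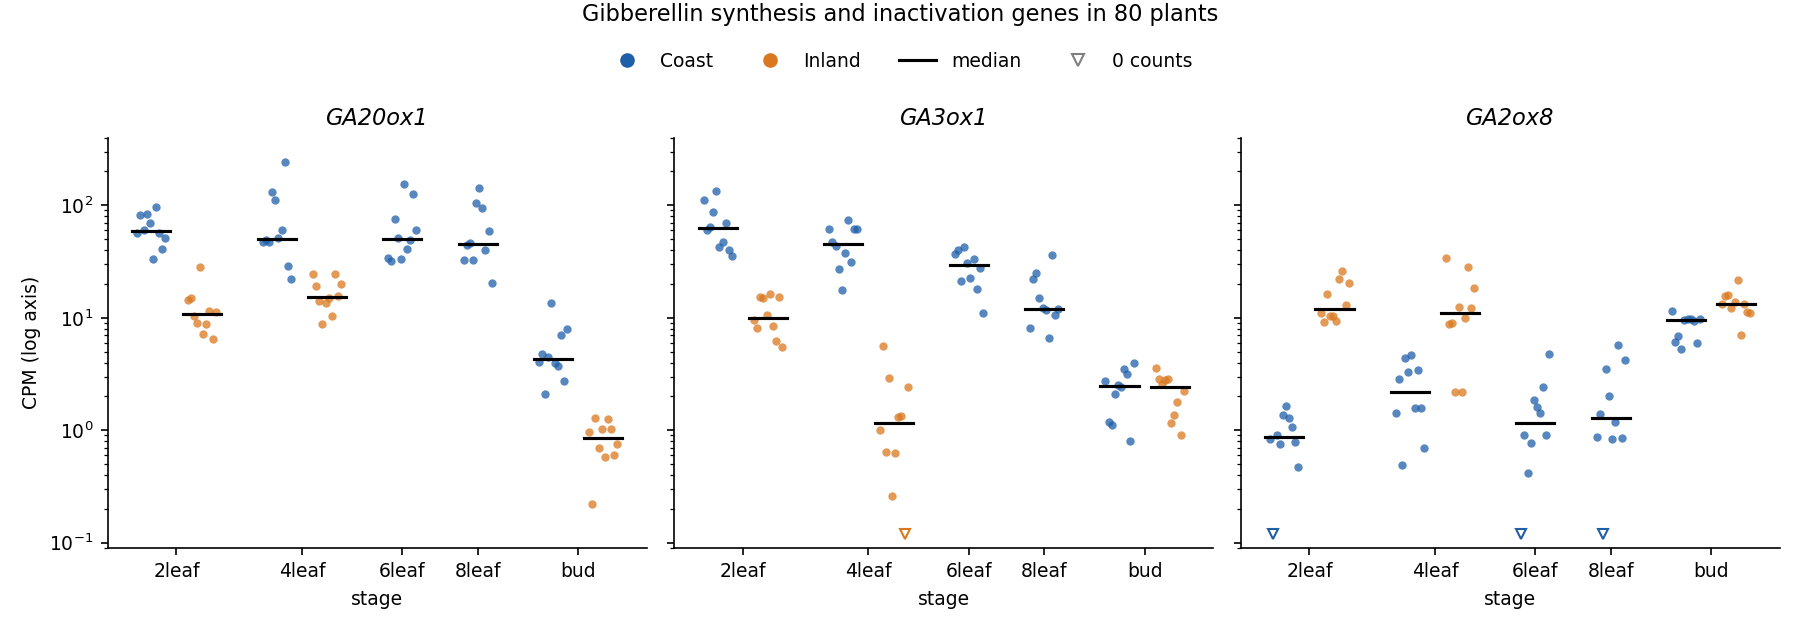
CPM of GA20ox1, GA3ox1 and GA2ox8 in each of 80 plants (1 point per plant, log axis) by stage, with Coast in blue to the left of Inland in orange, black lines at the group medians and open triangles for libraries with 0 counts. GA20ox1 dropped in the buds of both lines, whereas GA3ox1 was at a low level in Inland leaves by 4leaf (median 1.16 CPM) and GA2ox8 was low in Coast leaves (medians of 0.869 to 2.21 CPM).

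At 2leaf, where the genes had been chosen, GA20ox1 averaged 63.2 ± 20.0 CPM in Coast plants and 12.2 ± 6.29 CPM in Inland plants (SD, n = 10 each), a fitted log2 fold change of 2.36. The 4leaf plants, which had no part in that contrast, also differed, but they are of the same lines. For genes chosen at 2leaf, a call or a high rank at 4leaf beside all genes is therefore no independent evidence. GA20ox1 averaged 79.2 ± 66.7 CPM in Coast 4leaf plants and 16.5 ± 5.35 CPM in Inland 4leaf plants (SD, n = 10 each), a log2 fold change of 2.26 (SE 0.29, adjusted p = 1.41e-09, edgeR quasi-likelihood test). Without library pool 1 it was smaller, at 1.49. The ranges met at their ends, with 1 Coast plant below the highest Inland plant. All 3 genes passed the test at 4leaf, beside 57.5% of the 16735 genes tested. For GA20ox1, 3.1% of all genes had a larger positive log2 fold change at 4leaf. In buds the level was lower in each line but the ecotype difference was again called, with 5.42 ± 3.33 CPM in Coast buds and 0.841 ± 0.332 CPM in Inland buds (SD, n = 10 each). The log2 fold change was 2.58 (SE 0.45, adjusted p = 1.24e-06, edgeR), and the 2 groups of bud samples did not overlap. The Inland bud values rest on 1 to 11 counts per library. The tissue markers also differed between these bud samples, with 378 to 621 CPM of the summed leaf list in Coast buds and 254 to 351 CPM in Inland buds, and 196 to 1660 CPM of the summed bud list in Coast buds and 1169 to 3234 CPM in Inland buds. Their part in the bud differences of the 3 genes was not tested.

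The bud against the 4leaf stage gave large negative changes of GA20ox1 in both lines. GA20ox1 fell by 3.84 on the log2 scale in Coast buds against Coast 4leaf plants (SE 0.31, adjusted p = 5.05e-17, edgeR), a 14.3-fold lower level. It fell by 4.15 in Inland buds against Inland 4leaf plants (SE 0.43, adjusted p = 3.16e-13), a 17.7-fold lower level. In Coast plants, 68.3% of genes were called between buds and 4leaf plants, and in Inland plants 69.2%. Genes with a larger negative change made up 0.61% of all genes tested in Coast plants and 0.831% in Inland plants. The drop was not called different between the lines, with a difference of 0.31 (95% confidence interval -0.68 to 1.30, adjusted p = 0.673), which still allows a difference of more than 2-fold. This difference moved with the pool, to 0.83 without library pool 1 (adjusted p = 0.212) and 0.75 with library pool as a term (adjusted p = 0.235, edgeR). Neither was called. For that contrast 32.5% of all genes were called.

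Along the Coast leaf stages, no step of GA20ox1 was called. The log2 fold change was -0.27 for 6leaf against 4leaf (95% confidence interval -0.86 to 0.31, adjusted p = 0.618) and -0.09 for 8leaf against 6leaf (-0.68 to 0.49, adjusted p = 0.972). The 8leaf plants, the last Coast leaf stage before buds, still held more GA20ox1 than Inland 4leaf plants, the last Inland leaf stage. The means were 61.5 ± 39.1 CPM in Coast 8leaf plants and 16.5 ± 5.35 CPM in Inland 4leaf plants (SD, n = 10 each), a log2 fold change of 1.89 (SE 0.32, adjusted p = 3.72e-07, edgeR), and all 3 genes were called in this comparison, beside 66.1% of all genes. Buds against 8leaf plants of the Coast line gave a log2 fold change of -3.50 (SE 0.34, adjusted p = 3.4e-15), and here too all 3 genes were called, beside 71.7% of all genes.

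The 3 highest GA20ox1 values at 4leaf, the 2 highest at 6leaf and the 3 highest at 8leaf in Coast plants were those of the libraries in pool 1. At 4leaf the pool 1 libraries held 112, 131 and 242 CPM, against 22.1 to 60.9 CPM in the other 7 libraries. At 6leaf they held 127 and 153 CPM against 31.7 to 75.1 CPM, and at 8leaf 93.7, 106 and 141 CPM against 20.3 to 58.6 CPM. Pool 1 thus did not overlap with the other pools in these 3 groups. In Inland 4leaf plants, pool 1 held 24.5 and 15.7 CPM, within or next to the range of 8.82 to 24.4 CPM in the other pools. Without pool 1, a setting added after the data were seen, the ecotype difference of GA20ox1 at 4leaf was 1.49 (adjusted p = 1.97e-06) and that of Coast 8leaf against Inland 4leaf was 1.30 (adjusted p = 7.14e-06), both still called but more than 1.5-fold smaller on the linear scale. In buds the difference without pool 1 was 2.33 (adjusted p = 5.48e-06), and the changes of Coast buds against Coast 4leaf and 8leaf plants were -3.25 and -3.10. Within single pools the 4leaf difference was positive in 4 of 4 pools, from 1.34 to 2.97, and called in each. The difference between Coast 8leaf and Inland 4leaf plants was 0.64 in pool 4 alone (adjusted p = 0.0895), where it was not called.

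**Figure D2:**
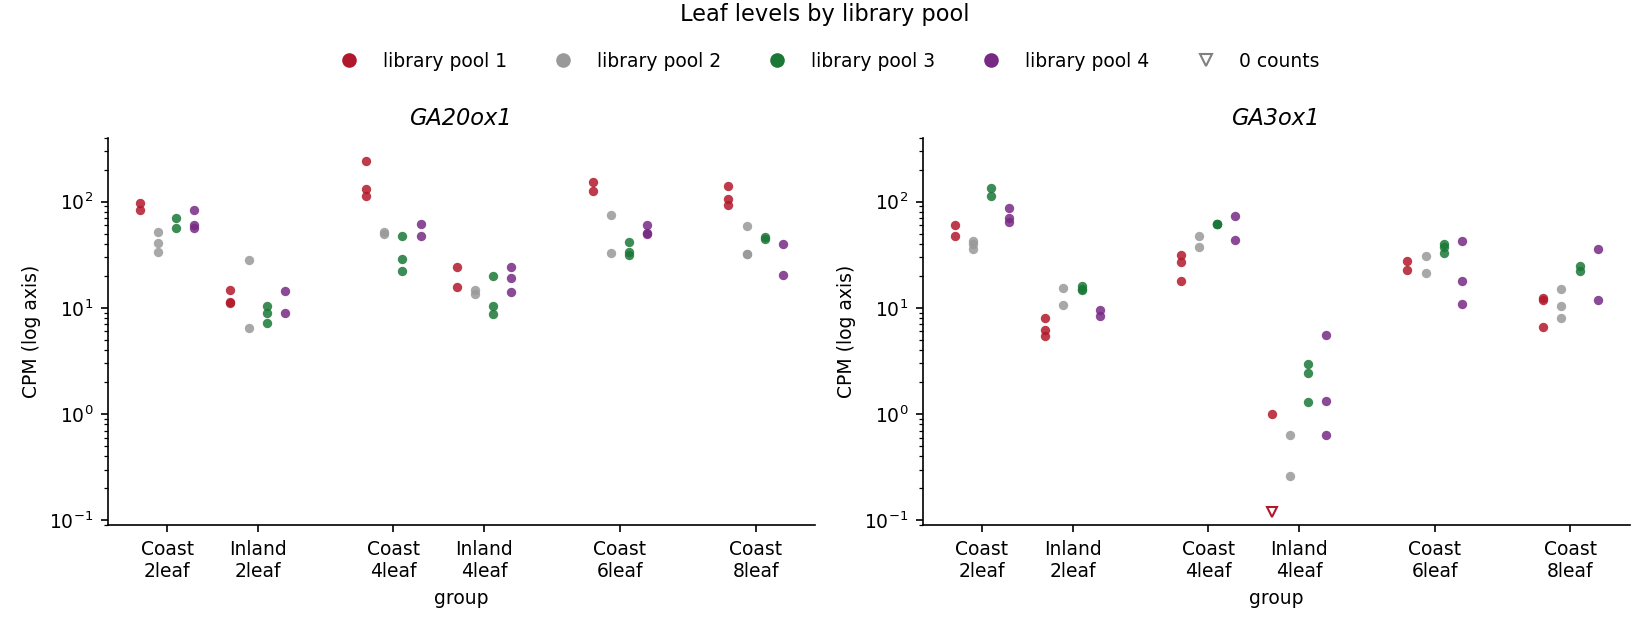
CPM of GA20ox1 and GA3ox1 in each leaf library (1 point per plant, log axis) by group and by library pool, with pools 1 to 4 in colour from left to right within each group and an open triangle for a library with 0 counts. For GA20ox1, the pool 1 libraries lie above all others in Coast 4leaf, 6leaf and 8leaf plants, and for GA3ox1 the pool 1 libraries lie below all others in Coast 4leaf plants.

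GA3ox1 fell with stage in Coast leaves, was at 0 to 14 counts per library in Inland leaves by 4leaf and had low, overlapping levels in the buds of the 2 lines. In Coast plants it ranged from 35.7 to 133 CPM at 2leaf (median 62.3), from 17.7 to 73.98 CPM at 4leaf (median 45.5), from 11.0 to 42.9 CPM at 6leaf (median 29.3) and from 6.64 to 35.8 CPM at 8leaf (median 12.1). Coast buds held 0.810 to 3.98 CPM (median 2.46). Inland plants held 5.45 to 16.2 CPM at 2leaf (median 10.0), 0 to 5.57 CPM at 4leaf (median 1.16) and 0.912 to 3.58 CPM in buds (median 2.42). Neighbouring Coast leaf stages overlapped in range, and the lowest Coast leaf group, 8leaf, lay next to Inland 2leaf and overlapped with it. A gap with no overlap separated Inland 2leaf plants from Coast buds, the next group in the order. Coast buds, Inland buds and Inland 4leaf plants were within each other's spread, and 1 Inland 4leaf plant, at 5.57 CPM, reached the lowest Inland 2leaf plant, at 5.45 CPM.

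The ecotype difference of GA3ox1 depended on the stage. At 2leaf, as a description, it averaged 69.2 ± 32.5 CPM in Coast plants and 11.0 ± 4.08 CPM in Inland plants (SD, n = 10 each), a log2 fold change of 2.67. At 4leaf it averaged 46.2 ± 18.1 CPM in Coast plants and 1.61 ± 1.66 CPM in Inland plants (SD, n = 10 each), a log2 fold change of 4.92 (SE 0.34, adjusted p = 3.61e-19, edgeR), or 30.2-fold. Every Coast 4leaf plant was above every Inland 4leaf plant. The 10 Inland libraries held 44 counts in all, from 0 to 14 per library, against 81 to 187 counts per library in Coast plants. Among all genes, 0.741% had a larger positive log2 fold change at 4leaf. In buds the 2 lines overlapped, with 2.35 ± 1.07 CPM in Coast buds and 2.21 ± 0.873 CPM in Inland buds (SD, n = 10 each). The log2 fold change in buds was 0.04 (95% confidence interval -0.66 to 0.75, adjusted p = 0.925). Both GA20ox1 and GA2ox8 were called in buds and GA3ox1 was not, beside 64% of all genes.

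The bud change of GA3ox1 differed between the lines. Coast buds were 4.25 lower than Coast 4leaf plants on the log2 scale (SE 0.30, adjusted p = 7.32e-20, edgeR), with no overlap between 0.810 to 3.98 CPM in buds and 17.7 to 73.98 CPM in leaves. Inland buds against Inland 4leaf plants gave a log2 fold change of 0.62 (95% confidence interval -0.23 to 1.47, adjusted p = 0.2), which was not called, and all 10 bud samples lay in the range of the leaf plants. The difference between these changes, Coast minus Inland, was -4.87 (SE 0.52, adjusted p = 3.02e-11), and 0.239% of all genes had a larger negative one. As a description, the 4leaf plants were below the 2leaf plants by 0.60 on the log2 scale in the Coast line and by 2.84 in the Inland line, so the Inland line was already near its bud level at 4leaf. The Inland change of 0.62 was the only one of these 3 fitted changes whose call moved with the setting. It was called with library size alone as the scaling (1.25, adjusted p = 0.00805), with library pool as a term (0.82, adjusted p = 0.0322) and in pool 1 alone (1.90, adjusted p = 0.0498).

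Across the Coast leaf stages, each a different leaf pair, GA3ox1 was lower at the later stages. The 8leaf plants averaged 15.9 ± 9.05 CPM and the 4leaf plants 46.2 ± 18.1 CPM (SD, n = 10 each), a log2 fold change of -1.56 (SE 0.26, adjusted p = 4.3e-06, edgeR), with 3 plants of each group in the range of the other. GA3ox1 was the only member called between these stages, beside 23.8% of all genes. The summed leaf markers declined over the same stages, with medians of 4259 CPM (2leaf), 3795 CPM (4leaf), 3428 CPM (6leaf) and 2785 CPM (8leaf), and their part in the change of GA3ox1 was not tested. The single steps were smaller and were not called, at -0.70 for 6leaf against 4leaf (95% confidence interval -1.20 to -0.20, adjusted p = 0.0598) and -0.86 for 8leaf against 6leaf (-1.38 to -0.34, adjusted p = 0.141). No member was called in either step, where 11.6% and 0.619% of all genes were called. With library pool as a term both steps of GA3ox1 were called (-0.69, adjusted p = 0.0116, and -0.77, adjusted p = 0.0476). Despite this decline, Coast 8leaf plants held more GA3ox1 than Inland 4leaf plants without overlap, with a log2 fold change of 3.36 (SE 0.37, adjusted p = 9.02e-13). The change to the Coast buds from 8leaf was -2.73 (SE 0.31, adjusted p = 1.19e-12). GA3ox1 was lowest in pool 1 and highest in pool 3 on average within the Coast leaf groups, at -0.44 and 0.63 log2 CPM from the group means, the reverse of GA20ox1 at 1.09 and -0.52. The part of the pool in either gene was not tested beyond these values and the fits within pools.

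GA2ox8, the inactivation gene, went the other way between the lines, with low levels in Coast leaves. In Coast plants it ranged from 0 to 1.63 CPM at 2leaf (median 0.869), from 0.493 to 4.69 CPM at 4leaf (median 2.21), from 0 to 4.78 CPM at 6leaf (median 1.16) and from 0 to 5.71 CPM at 8leaf (median 1.28). Coast buds held 5.30 to 11.5 CPM (median 9.52). Inland plants held 9.25 to 26.2 CPM at 2leaf (median 12.0), 2.21 to 34.3 CPM at 4leaf (median 11.1) and 7.05 to 21.5 CPM in buds (median 13.2). The 3 Inland groups and the Coast buds formed the upper part of the order, each within the spread of its neighbour, and the 4 Coast leaf groups formed the lower part. The Coast bud and Coast 4leaf samples, neighbours in that order, did not overlap. The 2 parts still met, as Coast buds began at 5.30 CPM and Coast 8leaf plants reached 5.71 CPM. Inland 4leaf plants, from 2.21 CPM, also reached into the Coast leaf ranges.

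The ecotype difference of GA2ox8 was large in leaves and small in buds. At 2leaf, as a description, it averaged 0.909 ± 0.467 CPM in Coast plants and 14.8 ± 6.06 CPM in Inland plants (SD, n = 10 each), a log2 fold change of -3.95, and the Coast values rest on 0 to 6 counts per library. At 4leaf it averaged 2.44 ± 1.49 CPM in Coast plants and 13.8 ± 10.5 CPM in Inland plants (SD, n = 10 each), a log2 fold change of -2.43 (SE 0.33, adjusted p = 6.48e-09, edgeR). The groups overlapped through 2 Inland plants at 2.21 CPM, plants 4 and 6. Within single pools the 4leaf difference was negative in 4 of 4 pools, from -4.02 to -0.99, and called in 3, with pool 2 alone not called (adjusted p = 0.271). In buds it averaged 8.41 ± 2.13 CPM in Coast samples and 13.5 ± 3.79 CPM in Inland samples (SD, n = 10 each). The log2 fold change of -0.69 in buds passed narrowly (SE 0.29, adjusted p = 0.0319). It was no longer called with upper-quartile factors (adjusted p = 0.0775), with library size alone (adjusted p = 0.0586), with all 80 libraries in 1 fit (adjusted p = 0.0601) or in any single pool.

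GA2ox8 rose in Coast buds and not detectably in Inland buds. In Coast plants the bud stage was 1.74 higher than 4leaf on the log2 scale (SE 0.33, adjusted p = 5.06e-06, edgeR) and 2.00 higher than 8leaf (SE 0.36, adjusted p = 1.02e-06). In Inland plants bud and 4leaf samples differed by -0.0038 on the log2 scale (95% confidence interval -0.55 to 0.55, adjusted p = 0.992), and with library size alone this change was called at 0.67 (adjusted p = 0.0231). The difference between the lines in this change was 1.74 (SE 0.44, adjusted p = 0.00135), called in the 60 libraries together but in 1 of 4 pools alone. Along the Coast leaf stages no step was called, with 6leaf against 4leaf at -0.69 (adjusted p = 0.33) and 8leaf against 6leaf at 0.40 (adjusted p = 0.87). Coast 8leaf plants held less GA2ox8 than Inland 4leaf plants, at 2.05 ± 1.82 CPM against 13.8 ± 10.5 CPM (SD, n = 10 each), a log2 fold change of -2.72 (SE 0.36, adjusted p = 5.41e-10).

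**Figure D3:**
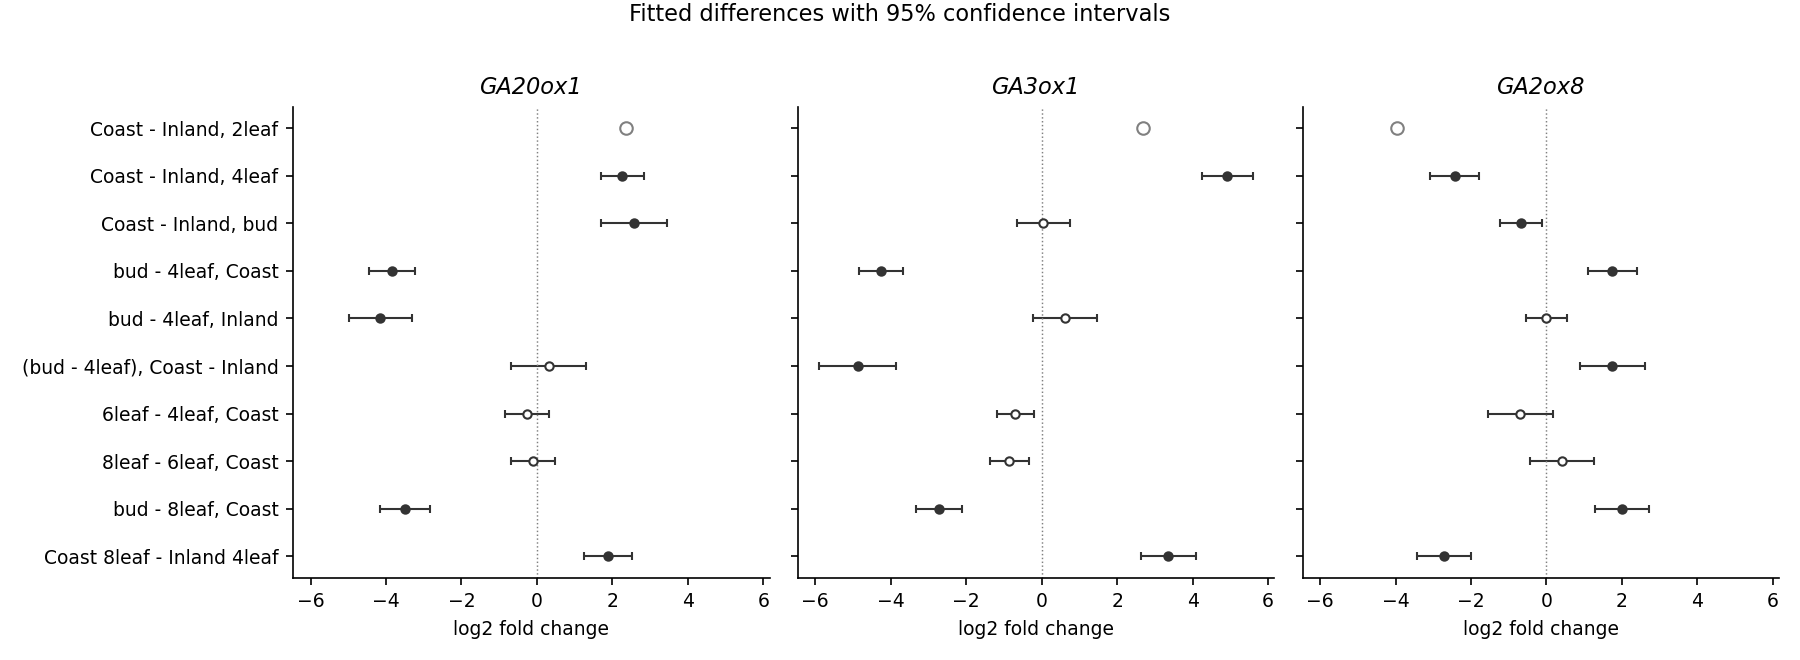
Fitted log2 fold changes of the 3 genes for each comparison, with 95% confidence intervals from the edgeR fits (10 plants per group), filled points for an adjusted p under 0.05 and open points otherwise. The 2leaf ecotype difference, by which the genes were chosen, is a grey circle without an interval. The ecotype difference of GA20ox1 was between 2.26 and 2.58 at the 3 shared stages, whereas that of GA3ox1 was 4.92 at 4leaf and 0.04 in buds. Without library pool 1, that of GA20ox1 was 1.49 at 4leaf and 2.33 in buds.

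The balance of synthesis to inactivation was taken within each plant as the log2 ratio of counts of GA20ox1, or of GA3ox1, to counts of GA2ox8, with 0.5 added to each count. Scaling factors cancel in this ratio, but with the 0.5 added library size does not cancel fully where either gene had few counts. Counts were few for GA2ox8 in Coast leaves, GA3ox1 in Inland 4leaf plants and GA20ox1 in Inland buds. There the size of a ratio also depends on the 0.5 added. In the 3 libraries with 0 counts of GA2ox8 the ratio grows with depth. A value of 0 means equal counts, which need not be equal numbers of transcripts. It serves only as a reference line for comparing groups, not as a point where synthesis and inactivation are equal. As a score over genes chosen on these samples, it is given without a test. In all 40 Coast leaf plants both ratios were above 0. The GA20ox1 ratio had medians of 5.81 (2leaf), 4.89 (4leaf), 5.37 (6leaf) and 5.36 (8leaf) in Coast plants, and of -0.76 in Coast buds. In Inland plants its medians were -0.50 at 2leaf, 0.24 at 4leaf and -3.67 in buds. The lines did not overlap at any shared stage. At 4leaf the lowest Coast plant was at 3.42 and the highest Inland plant at 2.66, and in buds the lowest Coast sample was at -1.68 and the highest Inland sample at -2.44. The difference of the group means, Coast minus Inland, was 6.33 at 2leaf, 4.22 at 4leaf and 3.05 in buds.

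The GA3ox1 ratio gave a different course. Its medians in Coast plants were 5.88 at 2leaf, 4.56 at 4leaf, 4.58 at 6leaf, 2.85 at 8leaf and -1.95 in buds, and in Inland plants -0.14 at 2leaf, -3.16 at 4leaf and -2.35 in buds. The Coast values at 4leaf, 2.39 to 6.15, lay above all Inland values, -6.27 to 0.39. In buds the lines overlapped, with -2.77 to -1.27 in Coast samples and -3.91 to -1.84 in Inland samples. The difference of the group means was 6.52 at 2leaf, 7.45 at 4leaf and 0.67 in buds. The sizes at 2leaf and 4leaf depend in part on the 0.5 added. Coast 2leaf libraries held 0 to 6 counts of GA2ox8, and Inland 4leaf libraries 0 to 14 counts of GA3ox1. Coast 8leaf plants, at 1.49 to 7.18, were still above every Inland 4leaf plant in this ratio. In the GA20ox1 ratio these groups overlapped, with the lowest Coast 8leaf plant at 2.25 and the highest Inland 4leaf plant at 2.66. All 20 bud samples were below 0 in this ratio, and 19 of them in that of GA20ox1. The Inland 4leaf plants had the widest spread, with an SD of 2.09. Few counts of GA3ox1 add to this spread, and its lowest value, -6.27, came from plant 9, with 0 counts of GA3ox1. Within pools the 4leaf difference of the GA3ox1 ratio ran from 6.78 to 8.56, and that of the GA20ox1 ratio from 2.35 in pool 2 to 5.39 in pool 1.

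**Figure D4:**
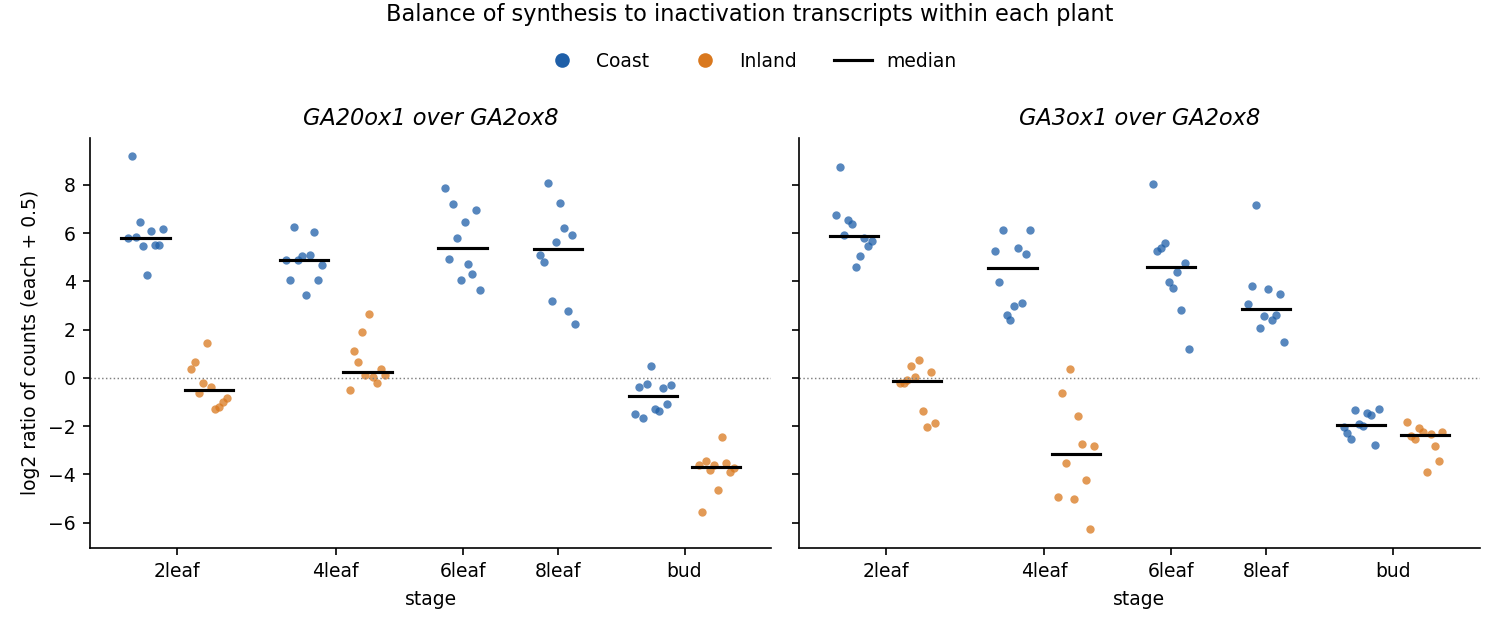
Log2 ratio of GA20ox1 to GA2ox8 counts (left) and of GA3ox1 to GA2ox8 counts (right) in each plant, by stage, with Coast in blue to the left of Inland in orange, black lines at the group medians and a dotted line at equal counts. The Coast leaf plants lie above 0 in both panels, and, compared at the same stage, the lines overlap only in the buds of the GA3ox1 panel.

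The levels of the 3 genes were related across groups, whereas among plants of a group no pair of genes passed the test. Over all 80 libraries the log2 CPM of GA20ox1 had r = 0.69 with GA3ox1 and -0.67 with GA2ox8, and GA3ox1 had -0.71 with GA2ox8, which is a description of the group means by which the genes had been chosen. With the group means removed, Pearson's r over the 80 plants was -0.14 for GA20ox1 with GA3ox1 (permutation p = 0.218, Spearman's rho -0.16, p = 0.176), 0.14 for GA20ox1 with GA2ox8 (p = 0.246, rho 0.11, p = 0.348) and -0.14 for GA3ox1 with GA2ox8 (p = 0.296, rho -0.11, p = 0.343). These 3 pairs had an adjusted p of 0.296 for r and 0.348 for rho. Without the 2 plants farthest from the median of the first gene, r was -0.12, 0.11 and -0.14. Within single groups of 10 plants, as a description, r ran from -0.71 (Coast 4leaf) to 0.57 (Coast bud) for GA20ox1 with GA3ox1. It ran from -0.37 (Coast 8leaf) to 0.75 (Inland 4leaf) for GA20ox1 with GA2ox8, and from -0.68 (Coast 6leaf) to 0.76 (Coast bud) for GA3ox1 with GA2ox8. Each of these rests on 10 plants that also differ in pool, and whether r differs between groups was not tested. For GA20ox1 with GA3ox1, r was positive within each of the 4 library pools (0.07 to 0.27). With pool means removed as well, it was 0.17 over all plants (permutation p = 0.149). Neither this value nor the -0.14 without that step passed the test.

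The genes whose levels were most like each member over the 80 libraries are named by identifier. For GA20ox1 they were Migut.I00198 (r = 0.96), Migut.A00631 (0.95) and Migut.N02576 (0.94). For GA3ox1 they were Migut.K00683 (0.90), Migut.D00713 (0.90) and Migut.A00897 (0.90), and for GA2ox8 Migut.N01025 (0.90), Migut.D00926 (0.88) and Migut.I01086 (0.87). All are Pearson's r of log2 CPM among the 17135 other genes compared, and the libraries share groups, pools and depth. With group means removed, r was 0.76 for GA20ox1 with Migut.I00198 and between 0.25 and 0.56 for the other 8 pairs.

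Among the other gibberellin genes that the study names, 5 were examined, a list that does not hold all of them. They were the receptor gene GID1B (Migut.N02128), the DELLA gene (Migut.H02266), the PIF1 transcription factor genes Migut.M00105 and Migut.D00504, whose products are held back by DELLA proteins in Arabidopsis, and the gibberellin response gene Migut.E01377. The study chose some of them on these samples, so their directions are no independent evidence. At 4leaf, 3 of the 5 were higher in Coast plants, 1 was lower and 1 was not called, beside 57.5% of all genes called, with a median log2 fold change of 0.44 against -0.01 over all genes. DELLA was 0.84 higher (SE 0.27, adjusted p = 0.0066, edgeR), the PIF1 genes Migut.M00105 and Migut.D00504 were 1.40 and 0.44 higher, and GID1B was lower, at -2.08 (SE 0.17, adjusted p = 3.21e-16). In buds 2 were higher, 2 lower and 1 not called, beside 64% of all genes called, with a median of 0.46 against -0.01. GID1B was again lower in Coast buds (-1.83), and Migut.D00504, higher at 4leaf, was lower in buds (-1.89, SE 0.21, adjusted p = 7.72e-12). Between 4leaf and bud, all 5 were called in each line and in the same directions, with 2 higher and 3 lower in buds, beside 68.3% of all genes called in Coast plants and 69.2% in Inland plants. DELLA had a change of -3.48 in Coast and -3.10 in Inland plants, and GID1B one of 0.69 in Coast and 0.45 in Inland plants. The difference of this change between the lines was called for 2 of the 5, Migut.D00504 (-2.32, adjusted p = 2.33e-10) and Migut.E01377 (5.29, adjusted p = 1.46e-05), beside 32.5% of all genes. Along the Coast leaf stages, 2 of the 5 were lower at 8leaf than at 4leaf, both PIF1 genes, at -0.49 and -0.78, where 23.8% of all genes were called.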

How the data were processed

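RNA was measured by 3′-Tag-Seq in 80 plants of 8 groups, named from the sample labels. The deposited values are whole-number counts of reads per gene, not normalised. The authors made these counts with HTSeq 0.6.1, after Cutadapt trimming, BWA-MEM alignment to version 2.0 of the M. guttatus genome and selection of good primary alignments in SAMtools. The table held 28140 genes, 2988 of them with a total of 0, below 6 label lines, and 0 columns lacked a sample. Library totals ran from 1256776 to 6090402, and low counts limit the precision of GA2ox8 in Coast leaves and of GA20ox1 and GA3ox1 in Inland plants. Among 3160 pairs of libraries there was no identical pair.

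The tests used edgeR 4.0.16 in R 4.3.3: low counts were removed by filterByExpr given the design (at least 10 counts, at least 15 in total), followed by TMM scaling, the quasi-likelihood F test and Benjamini-Hochberg adjustment over all genes tested, with a threshold of 0.05. Comparisons at 4leaf and in buds came from a fit with genotype, stage and the genotype-by-stage term in the 60 libraries of 2leaf, 4leaf and bud (16735 genes). Those with 6leaf or 8leaf plants came from a means model of 8 groups in all 80 libraries (17136 genes). Dividing a log2 fold change by the square root of its F statistic gave the standard error. Only the ecotype difference at 4leaf in the fit of 60 libraries was tried on simulated data, with edgeR and with voom. Those data held no differences between pools. CPM were scaled by TMM, log2 CPM used a prior count of 2, and correlations among plants used 100000 permutations within groups.

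The members, the other gibberellin genes, the tissue markers and the tests were chosen with earlier results of these data known. Named genes are the members, 5 further gibberellin genes and, for each member, the 3 genes with the highest r. Alternatives were voom with limma 3.58.1, DESeq2 1.42.0, other scalings and filters, a term for library pool, a replicate block of plant numbers, a single fit of the 80 libraries, each pool alone and leaving out 4 libraries. Leaving out pool 1, and removing pool means from the correlations, were added after the data were seen. Nothing in the labels says that equal plant numbers share a parent, tray or day. Gene coordinates and sequences were not used here.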

Additional observations from a re-analysis of the deposited data

Results flagged for a closer look

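Some single plants stood apart from their group. Over 48 combinations of a gene or ratio with a group of 10 plants, 9 had a plant whose gap to its neighbour was large for the range of the group (above Dixon's 95% critical value), where chance alone flags about 1 in 20, or 2.4. That figure holds for independent, normally distributed values. CPM are skewed, all 9 are the highest plant of their group, and 4 are ratios of 2 plants with 0 counts of GA2ox8, so an excess over chance is not shown. For GA20ox1 these were Coast 4leaf plant 8 at 242 CPM (next 131), Coast bud plant 5 at 13.4 CPM (next 7.96) and Inland 2leaf plant 5 at 28.3 CPM (next 14.9). For GA3ox1 it was Inland 4leaf plant 2 at 5.57 CPM (next 2.94), and for GA2ox8 Coast 6leaf plant 10 at 4.78 CPM (next 2.42). Both Coast plants with high GA20ox1 were in library pool 1. For the ratios, Coast 2leaf plant 2, with 0 counts of GA2ox8, was at 9.19 for GA20ox1 over GA2ox8, at 8.72 for GA3ox1 over GA2ox8 and at 8.96 for their mean. Coast 8leaf plant 3, also with 0 counts of GA2ox8, was at 7.18 for GA3ox1 over GA2ox8. These ratios at 0 counts depend on the 0.5 added to each count.

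The change between 4leaf and bud differed between the lines by the test of the difference itself for 2 genes. It was -4.87 on the log2 scale for GA3ox1 (SE 0.52, adjusted p = 3.02e-11) and 1.74 for GA2ox8 (SE 0.44, adjusted p = 0.00135), Coast minus Inland, in edgeR's quasi-likelihood test with 10 plants per group.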

How the results depend on the processing

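Calls of the 3 genes were compared under 12 settings and within 4 library pools. The ecotype differences of GA20ox1 at 4leaf and in buds, that of GA3ox1 at 4leaf, the bud against 4leaf changes of GA20ox1 in both lines and of GA3ox1 in Coast plants, and the difference of the GA3ox1 change between the lines kept their direction and their call in every setting and pool. filterByExpr given no groups removed GA2ox8. The cause of these changes was not tested.

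The ecotype difference of GA3ox1 in buds, not called, turned its sign with voom (-0.026), with library pool as a term (-0.049), without 4 libraries (-0.11), in pool 1 (-0.22) and in pool 4 (-0.62). That of GA2ox8 in buds lost its call with upper-quartile factors (-0.55), library size alone (-0.57), all 80 libraries in 1 fit (-0.66) and in pools 1 to 4 alone (-0.59, -0.82, -0.55 and -0.67). The bud against 4leaf change of GA2ox8 in Inland plants, near 0, was positive with voom (0.28), library size alone (0.67, called), no filter (0.017), without pool 1 (0.35) and in pools 2 and 3 (1.05 and 0.57). That of GA3ox1 in Inland plants was called with a pool term (0.82), library size alone (1.25) and in pool 1 (1.90). GA2ox8 at 4leaf was not called in pool 2 (-0.99), its Coast bud against 4leaf change in pools 1 and 2 (1.08 and 1.22), and the difference of that change between the lines in pools 1, 2 and 3 (2.08, 0.17 and 2.45). For 6leaf against 4leaf, GA3ox1 was called with voom (-0.68), filterByExpr given no groups (-0.70), library pool as a term (-0.69) and without pool 1 (-0.93), and for 8leaf against 6leaf with voom (-0.97) and library pool as a term (-0.77). Its 8leaf against 4leaf change was not called in pool 4 (-1.30). GA20ox1 turned positive for 6leaf against 4leaf in pools 2 and 3 (0.091 and 0.13) and without pool 1 (0.086), and in pool 3 for 8leaf against 6leaf (0.33) and 8leaf against 4leaf (0.46). GA2ox8 turned sign for 8leaf against 4leaf with library size alone (0.027), without pool 1 (0.29) and in pool 4 (2.36), for 6leaf against 4leaf in pool 4 (1.53) and for 8leaf against 6leaf in pool 3 (-0.10). In pool 4 alone neither bud against 8leaf of GA2ox8 (0.62) nor Coast 8leaf against Inland 4leaf of GA20ox1 (0.64) was called. The correlation of GA20ox1 with GA3ox1 turned to 0.17 with pool means removed.

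Same-numbered plants of different groups did not deviate together (280 pairs, median r -0.0065, 39 over 0.1), so the numbers do not pair the samples. With the plant number as a replicate block, GA2ox8 in Inland buds against 4leaf was 0.13, GA3ox1 for 6leaf against 4leaf was called (-0.75), and no other call changed. Library size alone moved the median of all genes by 0.62 and 0.70 for bud against 4leaf in Inland and Coast plants and by 0.31 for Coast 8leaf against Inland 4leaf, and upper-quartile factors moved it by -0.16 for bud against 4leaf in Inland plants and 0.14 for the ecotypes in buds.

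Some counts of genes called moved by over 1.5 times. For 6leaf against 4leaf, 1994 genes became 3362 under library size alone and 657 without pool 1. For 8leaf against 4leaf, 4077 became 6696 under library size alone, and for 8leaf against 6leaf 106 became 67 without a filter. Each pool alone, with 2 or 3 plants per group, called fewer genes: 3737 to 5510 against 9618 for the ecotypes at 4leaf, 4662 to 6901 against 10715 for the ecotypes in buds, 660 to 1490 against 5435 for the difference of the bud change, and 15 to 1799 against 4077 for 8leaf against 4leaf. Single pools gave as few as 6707 against 11435 for bud against 4leaf in Coast plants, 7592 against 12290 for bud against 8leaf and 5231 against 11323 for Coast 8leaf against Inland 4leaf. In pools 1 to 4 edgeR called 124, 244, 0 and 1 genes for 6leaf against 4leaf (656 at an unadjusted p under 0.05 in pool 3) and 0, 12, 0 and 0 for 8leaf against 6leaf (576, 567 and 855 in pools 1, 3 and 4).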
